A study of Mus musculus with 9 samples.

Results

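The 44 genes described here build, modify, carry or cut the sugar chains of heparan sulfate and its relatives, and they are 44 of the 37975 gene rows in the deposited expression table. They were chosen by name, and where a symbol had several rows the row with the highest mean was used. By role they are 6 enzymes of the linkage region, 4 enzymes that polymerise the heparan sulfate chain, 9 that sulfate or epimerise it, 3 that make sugar and sulfate donors, 3 that edit or cleave finished chains, 4 of chondroitin and dermatan sulfate, 8 membrane core proteins of heparan sulfate and 7 other proteoglycan core proteins. All 44 reached at least 1 FPKM (fragments scaled by transcript length and library size) in at least 1 library. In 43 of them the authors' estimate succeeded in all 9 libraries. The exception was Vcan, the core protein versican, whose value is missing in 5 libraries.

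A proteoglycan is a core protein that carries long sulfated sugar chains. In the Golgi a short linkage sugar is built on serines of the core, exostosins extend it into heparan sulfate, and other enzymes extend it into chondroitin sulfate instead. Sulfotransferases then place sulfate groups in patterns to which growth factors such as fibroblast growth factors (FGFs) bind, and sulfatases at the cell surface trim those patterns again. Mouse embryonic stem cells that lack heparan sulfate are known to respond poorly to FGF4, a signal that also directs the primitive endoderm of the blastocyst. The parietal branch of that lineage lays down Reichert's membrane, a thick basement membrane that contains heparan sulfate proteoglycans.

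Promoter sequences are shown for the 4 members with the widest ranges of values in the libraries below, which are serglycin (Srgn), heparan sulfate 3-O-sulfotransferase 1 (Hs3st1), the testican Spock1 and glypican-3 (Gpc3). They run 5′ to 3′ over the 250 bases before the gene start in the RefSeq annotation of build GRCm38.p6. Bases from the first exon annotated there by GENCODE on the same strand were left out. Capitals mark matches on either strand to a SOX core (ACAAT, reverse ATTGT) or a GATA core (GATAA, reverse TTATC).
Srgn, chr10:62527452-62527695, minus strand: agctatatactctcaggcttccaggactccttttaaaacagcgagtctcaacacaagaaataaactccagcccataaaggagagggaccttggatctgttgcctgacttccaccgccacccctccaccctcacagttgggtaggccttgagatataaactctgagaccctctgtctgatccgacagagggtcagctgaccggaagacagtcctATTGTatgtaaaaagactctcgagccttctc
Hs3st1, chr5:39644635-39644881, minus strand: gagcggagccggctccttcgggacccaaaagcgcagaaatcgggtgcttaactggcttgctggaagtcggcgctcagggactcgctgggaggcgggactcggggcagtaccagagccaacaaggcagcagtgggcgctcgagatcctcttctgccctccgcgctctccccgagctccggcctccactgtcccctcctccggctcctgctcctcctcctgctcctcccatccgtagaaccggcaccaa
Spock1, chr13:57908333-57908582, minus strand: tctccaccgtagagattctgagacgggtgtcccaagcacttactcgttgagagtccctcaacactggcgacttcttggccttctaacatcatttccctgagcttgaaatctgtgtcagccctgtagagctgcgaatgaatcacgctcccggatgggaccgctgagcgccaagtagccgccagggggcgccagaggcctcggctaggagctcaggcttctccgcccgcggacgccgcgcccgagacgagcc
Gpc3, chrX:52613975-52614224, minus strand: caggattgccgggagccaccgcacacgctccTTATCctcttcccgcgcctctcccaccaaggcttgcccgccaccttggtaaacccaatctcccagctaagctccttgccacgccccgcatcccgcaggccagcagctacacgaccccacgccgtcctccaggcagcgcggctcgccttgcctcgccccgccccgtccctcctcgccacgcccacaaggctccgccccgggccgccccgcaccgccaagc
Srgn holds 1 of the searched cores, the SOX core, Gpc3 holds the GATA core, and the windows of Hs3st1 and Spock1 hold neither. Over 32851 windows of 250 bases before gene starts, 27.7% hold the SOX core and 22.6% the GATA core. Of the 44 genes 33 have entries, with 39 windows in all, and 7 of these windows hold the SOX core and 7 the GATA core. A match is a description of the letters and not a binding site.

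The study followed mouse embryonic stem cells (ESC) as the endoderm transcription factor Sox17 was switched on. R1 ESC and wild-type XEN cells (extraembryonic endoderm stem cells, line IM8AR) are the wild-type libraries. The other 7 carry a Sox17 overexpression construct that responds to doxycycline (dox) and come from the Sox17-ESC line. They are the untreated line, the line kept in 100 ng/ml dox for 7, 21, 35 or 49 h or for 6 days, and the derived line Sox17-XEN. Sox17-XEN had 30 days in dox and another 30 days free of it, in an order that its label does not make clear, and its description calls it dox-independent. SORT appears in the description of the day 6 library without mention of a gate or marker. Per the labels, serum, LIF and a layer of mouse embryonic fibroblasts supported the ESC, and serum with medium from such fibroblasts supported the XEN cells. Each group has 1 library, each cell type rests on 1 or 2 lines, and no replicate error exists for any value.

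Sox17 itself was at 0.163 FPKM in R1 ESC, 0.909 FPKM without dox, 71.1 to 283 FPKM over the dox libraries, 101 FPKM in Sox17-XEN and 239 FPKM in wild-type XEN. Of 7 ESC markers that could be tested all 7 were lower in the 2 XEN lines, and all 7 of the testable primitive endoderm markers were higher. The ESC markers with a value summed to 3195 FPKM without dox, 2414 FPKM at 49 h and 2181 FPKM at day 6. In Sox17-XEN and wild-type XEN the sum was 12.9 and 15.7 FPKM. From no dox to day 6 these markers did not move together: Dppa5a went from 1375 to 1733 FPKM, Pou5f1 from 723 to 325 FPKM and Nanog from 169 to 1.89 FPKM. The absolute depth is unknown because the table holds no counts. A rough estimate from low values put day 6, Sox17-XEN and wild-type XEN at 62.0%, 62.9% and 67.4% of the depth of R1 ESC and the other libraries at 95.3% to 127%, from only 4.08% to 9.14% of the low genes. A list of 22 fibroblast markers summed to 1304 FPKM in R1 ESC, 2623 FPKM without dox and 1332, 1756, 2228 and 3426 FPKM at 7, 21, 35 and 49 h. The same sum was 245 FPKM at day 6, 1041 FPKM in Sox17-XEN and 64.3 FPKM in wild-type XEN, where 8 of the 22 reached 1 FPKM and 2 were listed at 0. The level of these markers thus differs between the groups, and its part in the results below was not tested. Genes at 5 FPKM or more were also higher on the whole in the later libraries, with a median difference of 0.42 log2 units between wild-type XEN and R1 ESC, 0.35 between Sox17-XEN and no dox, and 0.24 between day 6 and no dox. All differences below are of log2(FPKM + 1) as deposited, before any rescaling by these medians, and this scale understates the change of low genes. In bulk RNA, fewer cells of a type and less RNA per cell cannot be told apart.

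Between pairs of single libraries a gene is called higher or lower when it differs by at least 2 log2 units, with no test. Wild-type XEN had 13 of 44 members higher than R1 ESC and 4 lower, against 8.24% and 6.54% of all genes, and the median over members was 1.39 against 0.21 over all genes. Sox17-XEN had 9 of 43 members higher than Sox17-ESC without dox and 0 lower, against 5.75% and 5.0% of all genes, with a median of 0.81 against 0.17. Day 6 had 8 of 43 members higher than no dox and 2 lower, against 5.14% and 3.86% of all genes, with a median of 0.57 against 0.10. The comparisons of Sox17-XEN and of day 6 share the library without dox. Day 6 is also the only library whose description holds SORT, so any sorting and the time in dox cannot be told apart there. After the libraries were brought to a common median, wild-type XEN had 4 members higher and 5 lower, against 4.65% and 8.47% of all genes. Sox17-XEN then had 5 higher and 3 lower, against 3.74% and 6.48%. Day 6 then had 6 higher and 3 lower, against 3.63% and 4.92%. Of the 13 members higher in wild-type XEN 9 lay between 2.27 and 2.49, just past the threshold.

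Each cell type does recur once, in a second line. limma, which fits all genes together, compared wild-type XEN and Sox17-XEN with R1 ESC and Sox17-ESC without dox, each line as 1 unit. A gene was called at a Benjamini-Hochberg adjusted p under 0.05 and at least 2 log2 units, and "rose" or "fell" in the XEN lines means this call. Of 43 members 8 rose and 0 fell, against 4.85% and 3.89% of all genes. By adjusted p alone 15 members were on the higher side and 1 on the lower, against 11.6% and 9.89% of all genes. At least 1 member rose in 6 of the 8 roles, and the exceptions were the editing enzymes and the enzymes of chondroitin and dermatan sulfate. These exceptions hold 3 and 4 genes, too few for 0 calls to set them apart when 4.85% of all genes rose. With either ESC line left out limma called 0 members and 0.0% of all genes (adjusted p of the 8 members from 0.0729 to 0.254). Without Sox17-XEN 7 members were called, 5 of them among the 8, against 9.86% of all genes in either direction. Without wild-type XEN 6 were called, 5 of them among the 8, against 8.11%. With each XEN line blocked with its ESC line 8 were called, 7 of them among the 8, against 8.13%, and Hs3st3b1 lost the call (limma adjusted p = 0.0508). After rescaling, Srgn, Hs3st1, Spock1 and Gpc6 kept the call and the other 4 did not. These tests use the same 4 libraries as the 2 pairs of lines above.

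**Figure D1:**
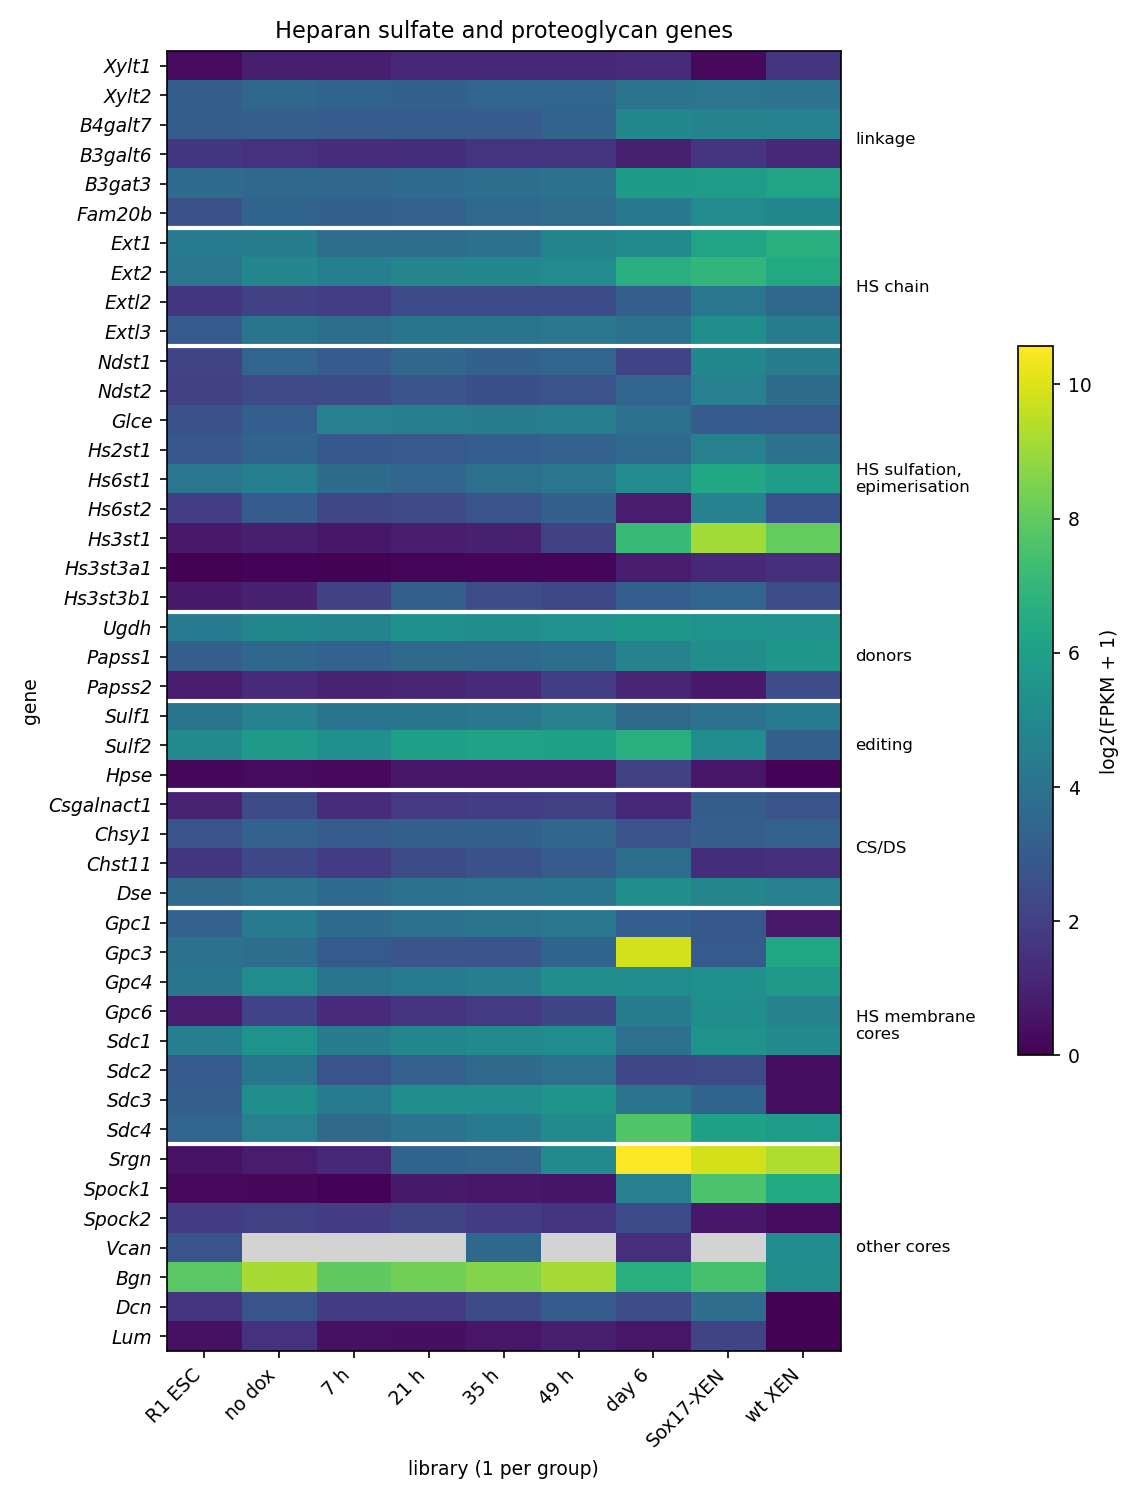
Colour gives log2(FPKM + 1) for the 44 genes (rows, grouped by role, with HS for heparan sulfate and CS/DS for chondroitin and dermatan sulfate) in the 9 libraries (columns, 1 per group), and grey marks values whose estimate failed. Hs3st1 and Spock1 are dark from R1 ESC to 35 h and lighter from day 6 on, Srgn is brightest at day 6 at 1517 FPKM, and Bgn is brightest without dox at 583 FPKM.

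The linkage region is the short sugar on which both heparan and chondroitin sulfate chains are built. B3gat3, which adds its final glucuronic acid, stood at 11.8 FPKM in R1 ESC, 10.99 FPKM without dox and 10.1, 11.9, 13.1 and 14.9 FPKM at 7, 21, 35 and 49 h. It was at 53.4 FPKM at day 6, 55.6 FPKM in Sox17-XEN and 71.3 FPKM in wild-type XEN, so the 3 later libraries lay far above the 6 earlier ones. In the XEN lines B3gat3 rose by 2.37 log2 units (SE 0.22, limma adjusted p = 0.0171). After rescaling the difference was 1.86, under the threshold of 2, and the call was lost. B4galt7, which adds the first galactose, had the same shape, with 6.92 to 9.43 FPKM up to 49 h and 28.8, 25.3 and 24.5 FPKM at day 6, in Sox17-XEN and in wild-type XEN. Its difference between the lines was 1.52 (SE 0.22, limma adjusted p = 0.0245).

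Fam20b, the kinase that phosphorylates the linkage xylose, was at 5.23 FPKM in R1 ESC, 9.52 FPKM without dox, 8.37, 9.02, 11.4 and 12.5 FPKM over the 4 times up to 49 h, 18.2 FPKM at day 6, 32.9 FPKM in Sox17-XEN and 29.1 FPKM in wild-type XEN. Its values thus lay in the order of ESC, day 6 and XEN lines, and the difference between the lines was 1.98 (limma adjusted p = 0.0332), just under 2. The xylosyltransferases that start the chain behaved differently from each other. Xylt2 ran from 7.72 FPKM in R1 ESC to 16.9 FPKM in Sox17-XEN, and Xylt1 stayed at or below 2.14 FPKM everywhere, with its lowest value in Sox17-XEN at 0.212 FPKM. B3galt6, which adds the second galactose, was between 0.88 and 2.27 FPKM and did not pass the test (-0.20, limma adjusted p = 0.628).

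The exostosins polymerise heparan sulfate as a complex of the products of Ext1 and Ext2. Ext2 was at 16.6 FPKM in R1 ESC, 29.0 FPKM without dox, 22.6, 27.0, 29.0 and 33.6 FPKM at 7, 21, 35 and 49 h, 98.9 FPKM at day 6, 125 FPKM in Sox17-XEN and 84.8 FPKM in wild-type XEN. It rose in the XEN lines by 2.17 (SE 0.37, limma adjusted p = 0.0319), with an adjusted p of 0.0516 after rescaling and 0.0568 to 0.166 when any 1 of the 4 lines was left out. Ext1 stood at 20.1 FPKM in R1 ESC and 21.0 FPKM without dox, 13.2, 13.1, 14.8 and 26.0 FPKM over the dox course to 49 h, 31.6 FPKM at day 6, 70.2 FPKM in Sox17-XEN and 101 FPKM in wild-type XEN. At day 6 the partners stood apart, with Ext2 1.74 and Ext1 0.57 log2 units above no dox. In the XEN lines Ext1 differed by 1.98 (SE 0.25, limma adjusted p = 0.02001). It was highest in wild-type XEN and Ext2 in Sox17-XEN.

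Extl2 and Extl3 are exostosin-like enzymes that act around the start of the chain. Extl2 was at 2.30 FPKM in R1 ESC, 3.26 FPKM without dox, 2.82, 4.22, 4.12 and 4.53 FPKM at 7, 21, 35 and 49 h, 8.07 FPKM at day 6, 16.6 FPKM in Sox17-XEN and 10.9 FPKM in wild-type XEN. Its difference between the lines was 1.94 (limma adjusted p = 0.0383). Extl3 was lowest in R1 ESC at 7.09 FPKM and highest in Sox17-XEN at 37.1 FPKM, and it did not pass the test (1.27, limma adjusted p = 0.157). Day 6, at 14.6 FPKM, was below the 16.4 FPKM without dox for this gene.

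Sulfation starts when N-deacetylase/N-sulfotransferases place sulfate on glucosamine. Ndst1 was at 3.52 FPKM in R1 ESC, 9.75 FPKM without dox, 7.24, 10.4, 8.79 and 9.79 FPKM at 7, 21, 35 and 49 h, 3.33 FPKM at day 6, 29.5 FPKM in Sox17-XEN and 20.8 FPKM in wild-type XEN. Day 6 was thus the lowest of the 9 libraries for Ndst1 and the XEN lines the highest. Ndst2 stood at 2.99 FPKM in R1 ESC, 4.03 FPKM without dox, 4.50, 5.85, 4.98 and 5.61 FPKM at 7, 21, 35 and 49 h, 9.89 FPKM at day 6, 23.2 FPKM in Sox17-XEN and 12.2 FPKM in wild-type XEN. The line difference was 1.89 for Ndst1 (SE 0.53, limma adjusted p = 0.0748) and 1.996 for Ndst2 (SE 0.43, limma adjusted p = 0.0460), which falls just short of 2. The paralogs Ndst3 and Ndst4 were below 1 FPKM in every library.

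Hs6st1 and Hs6st2 add 6-O-sulfate, the mark that the Sulf enzymes remove. Hs6st2 was at 2.75 FPKM in R1 ESC, 7.42 FPKM without dox, 3.69, 4.08, 5.75 and 8.51 FPKM at 7, 21, 35 and 49 h, 0.74 FPKM at day 6, 24.8 FPKM in Sox17-XEN and 5.26 FPKM in wild-type XEN. It was 2.27 log2 units lower at day 6 than without dox, and 1.11 lower than in R1 ESC. Hs6st1 went the other way at day 6, at 32.8 FPKM against 22.4 FPKM without dox, and it was at 79.0 FPKM in Sox17-XEN and 58.9 FPKM in wild-type XEN. Its range from R1 ESC to 49 h was 9.88 to 22.4 FPKM, which does not overlap the XEN lines, and the line difference was 1.76 (limma adjusted p = 0.0260). Hs2st1, the 2-O-sulfotransferase, ran from 6.22 FPKM in R1 ESC to 23.5 FPKM in Sox17-XEN (1.19, limma adjusted p = 0.0923).

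3-O-sulfation is the last and rarest modification of the chain, and the best known product of Hs3st1 is the site that binds antithrombin. Hs3st1 (ENSMUSG00000051022, chr5:40005173-40146714 in mm9) stood at 0.672 FPKM in R1 ESC and at 0.869 FPKM without dox, followed by 0.604, 0.811 and 0.899 FPKM at 7, 21 and 35 h. It was at 3.27 FPKM at 49 h, 141 FPKM at day 6, 548 FPKM in Sox17-XEN and 266 FPKM in wild-type XEN. No ESC or early dox library came near the last 3. In the XEN lines it rose by 7.76 (SE 0.41, limma adjusted p = 0.0171), the widest difference among the enzymes. With 1 line left out the difference was 7.24 to 8.28, and the call was lost without R1 ESC (adjusted p = 0.0773) and without the untreated Sox17 line (adjusted p = 0.0750). The authors' interval for it starts at 0 in every library and ends at 1499 FPKM in Sox17-XEN.

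Hs3st3b1, another 3-O-sulfotransferase, already stood above its level without dox at 7 h. It was at 0.678 FPKM in R1 ESC, 0.937 FPKM without dox, 3.22, 8.47, 4.71 and 3.95 FPKM at 7, 21, 35 and 49 h, 7.86 FPKM at day 6, 9.89 FPKM in Sox17-XEN and 4.69 FPKM in wild-type XEN. Every dox and XEN library was therefore above both ESC libraries without dox. It rose in the XEN lines by 2.13 (SE 0.43, limma adjusted p = 0.0422), with an adjusted p of 0.0624 after rescaling and 0.0778 with no filter on low values. Without Sox17-XEN the difference was 1.66, under the threshold, and without an ESC line the adjusted p was 0.199 to 0.254. Hs3st3a1, which lies 512841 bases away on chromosome 11 and makes the same kind of chain, is close to it in coding sequence, so reads could be split between them. It did not exceed 0.148 FPKM up to 49 h and was at 0.751 FPKM at day 6, 1.33 FPKM in Sox17-XEN and 1.65 FPKM in wild-type XEN. The other 3-O-sulfotransferase genes Hs3st2, Hs3st4, Hs3st5 and Hs3st6 were below 1 FPKM in every library.

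Glce, which converts glucuronic into iduronic acid, was high through the early dox libraries. It stood at 5.18 FPKM in R1 ESC and 7.88 FPKM without dox, then at 23.3, 22.9, 21.5 and 21.98 FPKM at 7, 21, 35 and 49 h. It was at 13.7 FPKM at day 6, still above both untreated ESC lines. At 7.30 FPKM in Sox17-XEN and 6.70 FPKM in wild-type XEN it was within their range. The difference at 7 h was 1.45, under the threshold of 2. Between the XEN and ESC lines it was 0.11 (limma adjusted p = 0.829), and on rescaling the sign of the wild-type pair (0.32) turned.

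The donors feed all these reactions. Ugdh, which makes UDP-glucuronic acid, was the highest of the group in every library but wild-type XEN, at 18.9 FPKM in R1 ESC, 28.1 FPKM without dox, 25.9, 38.3, 35.6 and 39.4 FPKM at 7, 21, 35 and 49 h, 47.0 FPKM at day 6, 40.8 FPKM in Sox17-XEN and 39.2 FPKM in wild-type XEN. Papss1, which makes the sulfate donor PAPS, stood at 8.18 FPKM in R1 ESC, 10.4 FPKM without dox, 9.02, 11.7, 11.2 and 13.0 FPKM at 7, 21, 35 and 49 h, 25.4 FPKM at day 6, 36.0 FPKM in Sox17-XEN and 49.4 FPKM in wild-type XEN. Papss1 rose in the XEN lines by 2.08 (SE 0.27, limma adjusted p = 0.0213). The call was lost after rescaling, at 1.58, and without wild-type XEN, at 1.86 (limma adjusted p = 0.0531). Its isoenzyme gene Papss2 was at 4.69 FPKM in wild-type XEN and 0.629 FPKM in Sox17-XEN, the highest and the lowest of its 9 values.

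Finished chains are trimmed by the extracellular sulfatases Sulf1 and Sulf2 and cut by heparanase (Hpse). Between the lines 0 of the 3 genes were called, against 4.85% of all genes higher and 3.89% lower. Sulf2 was at 32.1 FPKM in R1 ESC, 51.6 FPKM without dox, 38.5, 61.3, 67.6 and 65.9 FPKM at 7, 21, 35 and 49 h, 99.8 FPKM at day 6, 33.9 FPKM in Sox17-XEN and 8.62 FPKM in wild-type XEN. The day 6 library was the highest and wild-type XEN the lowest. Its locus overlaps Ncoa3, which reached 71.9 FPKM, so reads could be shared between them. Sulf1 stayed between 11.7 and 24.5 FPKM, and Hpse was under 1 FPKM except at day 6, where it was at 3.18 FPKM.

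The 4 enzymes of chondroitin and dermatan sulfate had 0 calls in either direction in each XEN pair. Over all genes 8.24% were higher and 6.54% lower in wild-type XEN, and 5.75% and 5.0% in Sox17-XEN. Dse, which makes the iduronic acid of dermatan sulfate, was the highest, at 11.7 FPKM in R1 ESC, 15.2 FPKM without dox, 11.9, 14.6, 15.1 and 16.4 FPKM at 7, 21, 35 and 49 h, 37.4 FPKM at day 6, 27.4 FPKM in Sox17-XEN and 23.1 FPKM in wild-type XEN. Chst11, a chondroitin 4-O-sulfotransferase, peaked at day 6 as well, at 13.2 FPKM, and was at 1.58 and 1.65 FPKM in Sox17-XEN and wild-type XEN, below both ESC lines at 2.30 and 3.84 FPKM. Chsy1, a chondroitin synthase, ran from 5.44 to 10.2 FPKM. Csgalnact1, which commits a linkage region to chondroitin sulfate, ran from 1.10 FPKM in R1 ESC to 7.71 FPKM in Sox17-XEN. The largest line difference of the 4 was that of Csgalnact1, at 1.17 (limma adjusted p = 0.204).

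The membrane core proteins decide where heparan sulfate is displayed: glypicans hang from a lipid anchor and syndecans span the membrane. Gpc3 (ENSMUSG00000055653, chrX:49625602-49972224 in mm9) had the most uneven course of the 8. R1 ESC had 14.4 FPKM and the untreated Sox17 line 13.0 FPKM, followed by 6.85, 5.83, 5.83 and 9.54 FPKM at 7, 21, 35 and 49 h. It was at 920 FPKM at day 6, 6.98 FPKM in Sox17-XEN and 77.6 FPKM in wild-type XEN. Day 6 thus stood 6.04 log2 units above no dox and Sox17-XEN 6.85 below day 6, while wild-type XEN stood 2.35 above R1 ESC, 1.76 after rescaling. The 2 XEN lines differed by 3.30 with Sox17-XEN the lower, and the test over lines gave 0.77 (SE 1.18, limma adjusted p = 0.654). Gpc4, whose locus begins 107172 bases away, did not share this course and ran from 16.2 FPKM at 7 h to 50.6 FPKM in wild-type XEN.

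Gpc6 was the glypican called between the lines. It was at 0.811 FPKM in R1 ESC, 3.37 FPKM without dox, 1.39, 2.01, 2.48 and 3.62 FPKM at 7, 21, 35 and 49 h, 21.1 FPKM at day 6, 37.7 FPKM in Sox17-XEN and 25.4 FPKM in wild-type XEN. All 3 late libraries were well above the other 6. It rose by 3.51 (SE 0.56, limma adjusted p = 0.0279), and with any 1 line left out the adjusted p was 0.0607 to 0.124. Gpc1 stood at 8.97 FPKM in R1 ESC, 20.2 FPKM without dox, 11.9, 15.0, 15.8 and 17.1 FPKM at 7, 21, 35 and 49 h, 7.91 FPKM at day 6, 6.57 FPKM in Sox17-XEN and 0.66 FPKM in wild-type XEN. The difference over the lines was -2.03 for Gpc1 (SE 0.91, limma adjusted p = 0.177), so it was not called.

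Sdc4, the syndecan of focal adhesions, was the syndecan with higher values late. It was at 9.95 FPKM in R1 ESC, 23.4 FPKM without dox, 11.7, 15.4, 20.3 and 31.6 FPKM at 7, 21, 35 and 49 h, 205 FPKM at day 6, 65.7 FPKM in Sox17-XEN and 53.9 FPKM in wild-type XEN. The test over lines gave 1.89 (SE 0.45, limma adjusted p = 0.0570). Sdc3 stood at 8.15 FPKM in R1 ESC, 37.6 FPKM without dox, 19.1, 37.1, 35.6 and 43.0 FPKM at 7, 21, 35 and 49 h, 15.6 FPKM at day 6, 9.55 FPKM in Sox17-XEN and 0.353 FPKM in wild-type XEN. Sdc2 stood at 7.14 FPKM in R1 ESC, 16.2 FPKM without dox, 5.54, 8.89, 11.6 and 14.2 FPKM at 7, 21, 35 and 49 h, 3.77 FPKM at day 6, 4.14 FPKM in Sox17-XEN and 0.30 FPKM in wild-type XEN. Both were lowest in wild-type XEN, and neither passed the test, with -2.31 for Sdc3 (limma adjusted p = 0.256) and -2.19 for Sdc2 (limma adjusted p = 0.138). The fibroblast marker sum was lowest in wild-type XEN as well, and its part was not tested. Sdc3 was also the 1 member past 2 log2 units between the untreated ESC lines, at 2.08 higher without dox than in R1 ESC. None was lower by that much, and 0.367% of all genes were higher and 0.227% lower. Smaller differences ran through the members: 39 of 43 were above R1 ESC, with a median of 0.54. Over all genes 8566 of 14987 were above it, with a median of 0.07. Of the 8 membrane cores 7 were above it, with a median of 1.08. Sdc1 ran from 13.6 FPKM at day 6 to 42.5 FPKM without dox.

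FPKM is per transcript length, so the 8 membrane cores can be set beside each other within a library. Their summed FPKM was 88.2 in R1 ESC, 190 without dox, 93.2, 131, 146 and 191 at 7, 21, 35 and 49 h, 1221 at day 6, 209 in Sox17-XEN and 241 in wild-type XEN. Syndecans made up 54.1% of the sum in R1 ESC, 62.9% without dox, 61.0% to 68.1% from 7 to 49 h, 19.5% at day 6, 57.3% in Sox17-XEN and 35.9% in wild-type XEN. Gpc3 alone gave 75.4% at day 6. In wild-type XEN the largest shares were Gpc3 at 32.2%, Sdc4 at 22.4% and Gpc4 at 21.0%, and in Sox17-XEN they were Sdc4 at 31.4%, Sdc1 at 19.4%, Gpc4 at 18.2% and Gpc6 at 18.0%, with Gpc3 at 3.34%. These are shares of transcript estimates from 1 library each and carry no error.

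**Figure D2:**
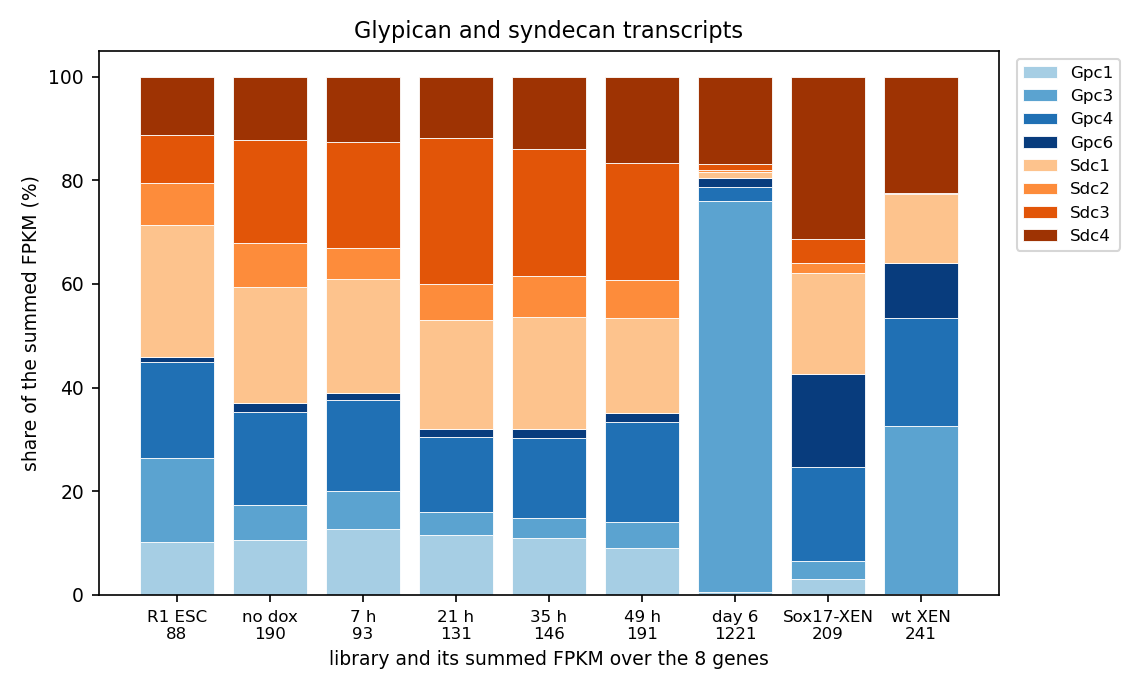
Stacked bars give the share (%) of each of 4 glypican (blue) and 4 syndecan (orange) genes in their summed FPKM, for each of the 9 libraries, with the sum under each bar. Gpc3 takes 75.4% at day 6, 32.2% in wild-type XEN and 3.34% in Sox17-XEN.

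Serglycin is the core protein of secretory granules, best known from blood and endothelial cells, and also made by parietal endoderm. Srgn (ENSMUSG00000020077, chr10:61956580-61990199 in mm9) was at 0.421 FPKM in R1 ESC, 0.781 FPKM without dox, 1.30, 9.49, 10.4 and 31.4 FPKM at 7, 21, 35 and 49 h, 1517 FPKM at day 6, 944 FPKM in Sox17-XEN and 634 FPKM in wild-type XEN. Its values climbed at each step of the course, and the XEN lines lay below day 6 and far above every earlier library. In the XEN lines it rose by 8.93 (SE 0.29, limma adjusted p = 0.0167), the largest difference of the 44. Leaving out a line gave 8.64 to 9.22, and the call was lost without R1 ESC (adjusted p = 0.0737) and without the untreated Sox17 line (adjusted p = 0.0729). Of 5 blood markers, Ptprc did not exceed 0.0596 FPKM, while Laptm5 ran from 7.83 to 28.3 FPKM up to day 6 and was at 0.29 and 0.091 FPKM in Sox17-XEN and wild-type XEN. Their sum was 9.01 FPKM in R1 ESC, 24.5 FPKM without dox, 14.3, 30.0, 23.1 and 17.1 FPKM at 7, 21, 35 and 49 h, 18.5 FPKM at day 6, 2.11 FPKM in Sox17-XEN and 1.68 FPKM in wild-type XEN. Laptm5 gave most of this sum up to day 6, with 22.8 FPKM of it without dox. Cd53 was lower in the XEN lines than in the ESC lines. Fcer1g was higher, at 0.425 and 0.210 FPKM in R1 ESC and without dox, and 1.11 and 1.55 FPKM in Sox17-XEN and wild-type XEN. The part of blood cells in the Srgn values was not tested. The 6 endothelial markers summed to 2.11 FPKM in R1 ESC, 3.52 FPKM without dox, 5.40, 12.9, 9.52 and 8.08 FPKM at 7, 21, 35 and 49 h, 40.0 FPKM at day 6, 147 FPKM in Sox17-XEN and 48.0 FPKM in wild-type XEN. Among them Cdh5 was at 0.0753 FPKM without dox, 4.06 FPKM at 21 h, 2.33 FPKM at day 6, 85.1 FPKM in Sox17-XEN and 19.8 FPKM in wild-type XEN. Esam gave most of the day 6 sum, at 34.1 FPKM. Tie1 went the other way, at 4.29 FPKM at 21 h, 0.0269 FPKM at day 6, and 0.0713 and 0.0456 FPKM in Sox17-XEN and wild-type XEN. Tek was at 1.58 FPKM without dox, 0.947 FPKM at day 6, and 29.7 and 23.4 FPKM in Sox17-XEN and wild-type XEN. The endothelial sum was higher at day 6 and in both XEN lines than in every earlier library, but its genes did not move together. The part of endothelial cells in the Srgn values was not tested.

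Spock1 encodes a testican, a secreted proteoglycan with heparan and chondroitin sulfate chains. It was at 0.202 FPKM in R1 ESC, 0.162 FPKM without dox, 0.0811, 0.711, 0.592 and 0.521 FPKM at 7, 21, 35 and 49 h, 23.3 FPKM at day 6, 187 FPKM in Sox17-XEN and 86.0 FPKM in wild-type XEN. No library up to 49 h reached 1 FPKM. It rose by 6.76 (SE 0.46, limma adjusted p = 0.0171). The related Spock2 went the other way, from 2.61 and 2.97 FPKM in the ESC lines to 0.599 FPKM in Sox17-XEN and 0.288 FPKM in wild-type XEN, a difference of -1.40 (SE 0.22, limma adjusted p = 0.0282) that is under the threshold of 2.

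**Figure D3:**
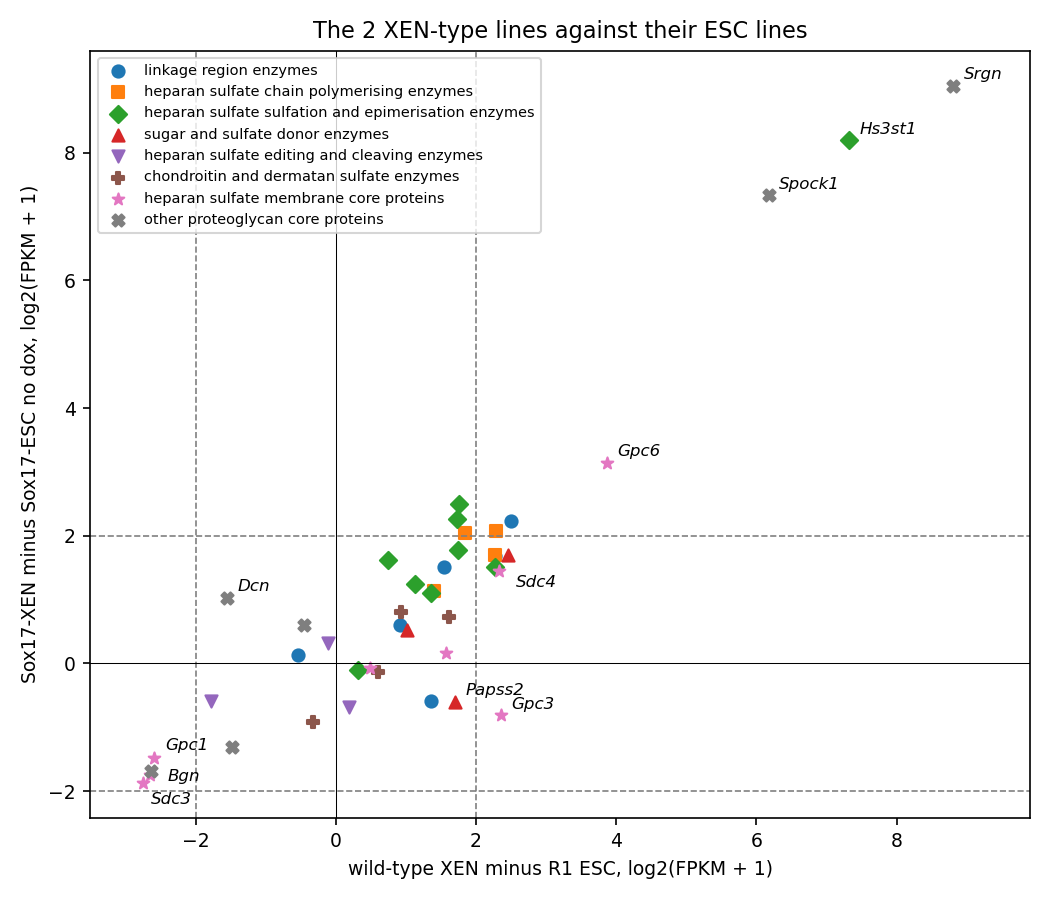
Each point is 1 of 43 genes, placed by its difference in log2(FPKM + 1) between wild-type XEN and R1 ESC (horizontal) and between Sox17-XEN and Sox17-ESC without dox (vertical), with the marker giving its role and dashed lines at 2 and -2. Srgn, Hs3st1 and Spock1 lie far to the upper right, Gpc6 lies at 3.87 and 3.15, and Gpc3 and Papss2 lie on opposite sides of 0 in the 2 pairs.

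The small leucine-rich proteoglycans biglycan (Bgn), decorin (Dcn) and lumican (Lum) are matrix proteins that fibroblasts make in quantity. Bgn was at 233 FPKM in R1 ESC, 583 FPKM without dox, 253, 318, 392 and 564 FPKM at 7, 21, 35 and 49 h, 99.2 FPKM at day 6, 181 FPKM in Sox17-XEN and 36.6 FPKM in wild-type XEN. The highest libraries for Bgn were the untreated line and 49 h, and the lowest that of wild-type XEN. It was 2.54 log2 units lower at day 6 than without dox but 1.22 lower than R1 ESC, and the test over lines gave -2.16 (SE 0.95, limma adjusted p = 0.172). The sum of the fibroblast markers was also highest in those libraries and lowest in wild-type XEN, and Col1a1 among them was at 148 FPKM in R1 ESC, 597 FPKM without dox, 62.7 FPKM at day 6, 252 FPKM in Sox17-XEN and 0.49 FPKM in wild-type XEN. In wild-type XEN 8 of the 22 markers were at 1 FPKM or more, led by Mmp2 at 26.9 FPKM, and the part of fibroblast RNA in the Bgn values was not tested.

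Dcn was at 12.6 FPKM in Sox17-XEN and 0.0418 FPKM in wild-type XEN, with 2.05 to 7.37 FPKM in the other 7 libraries. Lum, its neighbour 47356 bases away on chromosome 10, was at 3.49 FPKM in Sox17-XEN and 0.00858 FPKM in wild-type XEN, with 0.333 to 1.95 FPKM elsewhere. Both genes were highest in Sox17-XEN and lowest in wild-type XEN. Of the 22 fibroblast markers 8 were at 1 FPKM or more in wild-type XEN and 21 or 22 in every other library. Their sum was 1041 FPKM in Sox17-XEN, 1304 FPKM in R1 ESC, 2623 FPKM without dox and 245 FPKM at day 6. Dcn was at 2.05, 5.62 and 4.62 FPKM in R1 ESC, without dox and at day 6. The part of fibroblast RNA in the Dcn and Lum values was not tested. Vcan, with a value in 4 libraries, was at 5.70 FPKM in R1 ESC, 10.9 FPKM at 35 h, 1.79 FPKM at day 6 and 34.7 FPKM in wild-type XEN. Its locus overlaps Tmem167 and Xrcc4, which reached 10.98 and 6.40 FPKM.

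**Figure D4:**
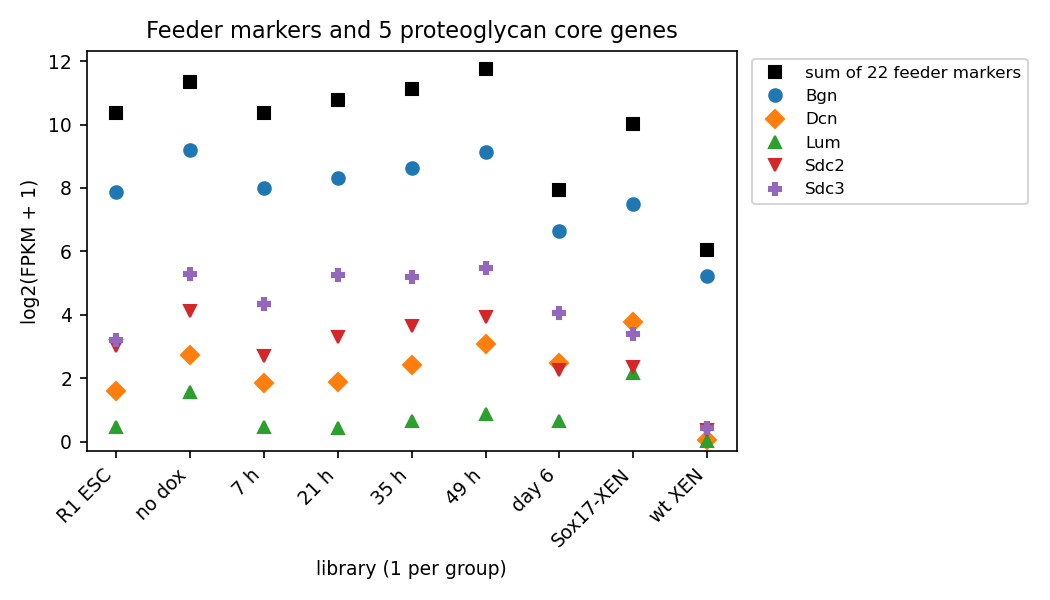
Points give log2(FPKM + 1) of 5 core protein genes and of the summed FPKM of 22 fibroblast markers (black squares) in the 9 libraries. The sum is 2623 FPKM without dox and 64.3 FPKM in wild-type XEN, and all 5 genes have their lowest value in wild-type XEN.

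The 2 XEN lines also differed from each other. Sox17-XEN had 6 of 43 members higher than wild-type XEN and 1 lower, against 2.73% and 1.59% of all genes. The 6 were Dcn (3.70), Sdc3 (2.96), Bgn (2.27), Gpc1 (2.19), Lum (2.15) and Hs6st2 (2.04), and Gpc3 (-3.30) was lower. The fibroblast marker sum was 1041 FPKM in Sox17-XEN and 64.3 FPKM in wild-type XEN, and its part in these differences was not tested. In the line of Sox17-XEN the same markers had summed to 2623 FPKM before dox.

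Early in the dox course few members moved past 2 log2 units from the library without dox, which all these comparisons share. At 7 h 0 members were higher and 0 lower, against 0.446% and 0.34% of all genes, and the member median was -0.33 against -0.10. At 21 h Srgn (2.56) and Hs3st3b1 (2.29) were higher, which makes 2 members against 0.746% of all genes, and 0 were lower against 0.446%. At 35 h 1 member, Srgn (2.67), was higher against 0.614% and 0 were lower against 0.46%. At 49 h again 1 member, Srgn (4.19), was higher against 0.706% and 0 were lower against 0.466%. Srgn was thus past the threshold from 21 h on.

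All 8 membrane cores were below their value without dox at 7, 21 and 35 h, with medians of -0.94, -0.58 and -0.38, and 4 of the 8 were below it at 49 h. Over all genes 9984 of 15007 were below it at 7 h, 8613 of 15011 at 21 h and 7786 of 14993 at 35 h, with medians of -0.10, -0.06 and -0.01. At 7 h the differences ran from -0.71 for Gpc1 to -1.39 for Sdc2. The 22 fibroblast markers followed the same order, with a sum of 2623 FPKM without dox, 1332 FPKM at 7 h and 3426 FPKM at 49 h. R1 ESC, which received no dox, had a sum of 88.2 FPKM over the 8 cores against 93.2 FPKM at 7 h and 190 FPKM without dox. No culture kept without dox for the same hours was analysed here, so time and dox cannot be told apart.

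A slope on the order of time over the 6 libraries from no dox to day 6 was fitted with limma. At an adjusted p under 0.05, 0 of 43 members passed, as did 0.0% of all genes. At an unadjusted p under 0.05, 14 members had an upward slope and 0 a downward one, against 16.4% and 8.74% of all genes. Srgn had the smallest adjusted p of the members, 0.116, with a slope of 1.72 log2 units per step (SE 0.33). Time entered in hours, which gives day 6 most of the weight, let 21 members pass, against 42.5% of all genes, and 9 passed with Sox17-XEN added as a last step, against 13.5%. Without day 6, 0 passed. The last library of the slope is the one marked SORT, so any sorting and time cannot be told apart at that step.

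**Figure D5:**
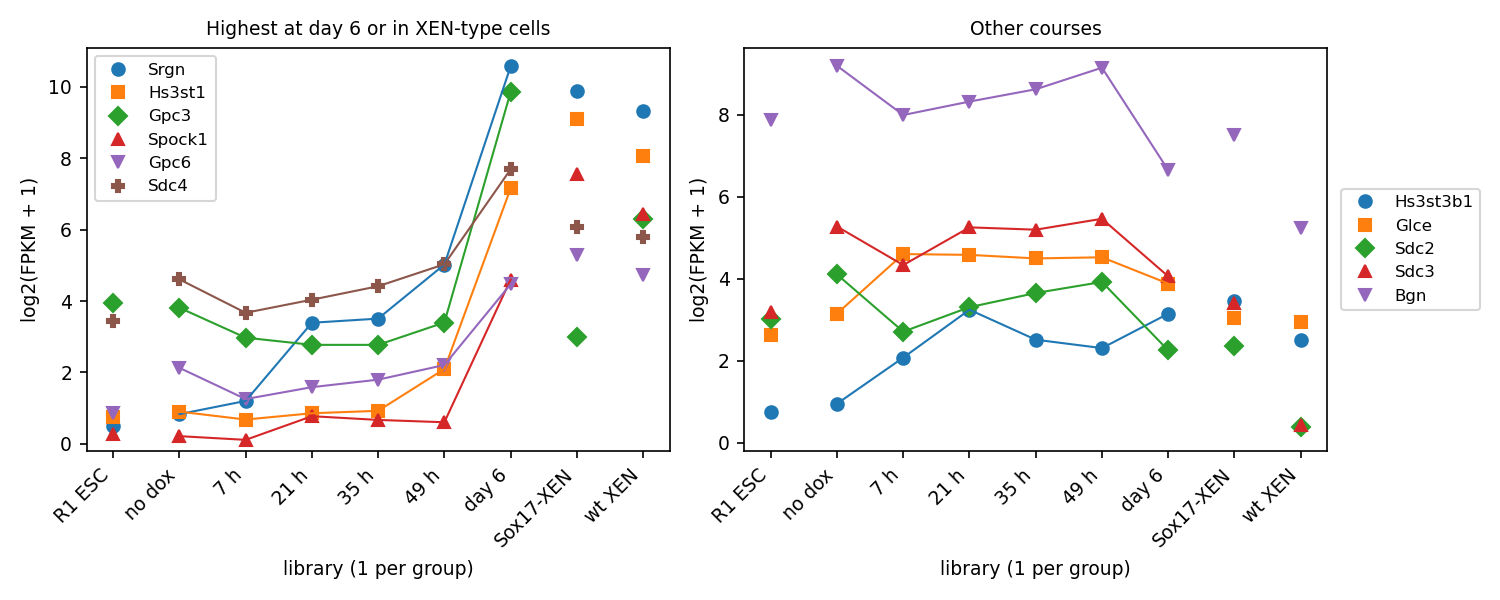
Points give log2(FPKM + 1) of 11 genes in the 9 libraries, and lines join the 6 libraries of the dox course, whose steps are not to scale in time. At left Srgn parts from the others at 21 h and Gpc3 is high at day 6 alone among the libraries of the Sox17 line; at right Glce and Hs3st3b1 are above the value without dox from 7 h, and Sdc2, Sdc3 and Bgn dip at 7 h.

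Further genes of the pathway came from 5 lists that hold 64 genes, of which 49 reached 1 FPKM. In wild-type XEN 8 of 48 were higher and 3 lower, beside 8.24% and 6.54% of all genes. In Sox17-XEN 6 of 48 were higher and 2 lower, beside 5.75% and 5.0%, and at day 6 10 of 49 were higher and 4 lower, beside 5.14% and 3.86%. The test over lines called 5 higher and 1 lower of 48, beside 4.85% and 3.89% of all genes, and those described here include Hgsnat, which was picked after its values were seen. Chst15, which adds a second sulfate to chondroitin, was at 2.04 FPKM in R1 ESC, 1.92 FPKM without dox, 25.4 FPKM at day 6, 115 FPKM in Sox17-XEN and 27.1 FPKM in wild-type XEN, and it rose by 4.26 (SE 0.76, limma adjusted p = 0.0340). Slc26a2, the sulfate transporter of the plasma membrane, was at 2.51 and 4.31 FPKM in the ESC lines, 59.3 FPKM at day 6, 21.2 FPKM in Sox17-XEN and 35.9 FPKM in wild-type XEN, a rise of 2.73 (limma adjusted p = 0.0265). Sulfate uptake and PAPS synthesis thus each had 1 gene that rose, Slc26a2 and Papss1.

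Lysosomal enzymes that degrade heparan sulfate were among the calls. Naglu, an N-acetylglucosaminidase, was at 2.87 and 4.40 FPKM in R1 ESC and without dox, 30.2 FPKM at day 6, 66.1 FPKM in Sox17-XEN and 31.3 FPKM in wild-type XEN, and it rose by 3.35 (limma adjusted p = 0.0230). Hgsnat, an acetyltransferase of the same breakdown, rose by 2.08 (limma adjusted p = 0.0224). The list they come from covers lysosomal breakdown of sulfated chains in general, and it also holds Hexa, a hexosaminidase subunit. Hexa was at 24.3 FPKM without dox, 247 FPKM at day 6, 28.2 FPKM in Sox17-XEN and 1.70 FPKM in wild-type XEN. Day 6 and wild-type XEN thus lay on opposite sides of the ESC lines for Hexa.

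Among other cores, Col18a1, a basement membrane collagen that carries heparan sulfate, was at 73.4 FPKM in R1 ESC, 113 FPKM without dox, 11.2 FPKM at day 6, 4.87 FPKM in Sox17-XEN and 0.136 FPKM in wild-type XEN. It fell by 5.15 (SE 0.89, limma adjusted p = 0.0323). Hspg2, the gene of perlecan, went the other way, at 40.0 and 76.6 FPKM in R1 ESC and without dox and 449 FPKM at day 6. It was at 340 FPKM in Sox17-XEN and 158 FPKM in wild-type XEN, and was not called (2.04, limma adjusted p = 0.0668). Agrn was at 52.4 FPKM without dox, 239 FPKM at day 6, 20.9 FPKM in Sox17-XEN and 93.3 FPKM in wild-type XEN (-0.23, limma adjusted p = 0.840). Tgfbr3, the TGF-beta coreceptor betaglycan, was at 0.718 and 3.98 FPKM in the ESC lines, 34.2 FPKM at day 6, 92.3 FPKM in Sox17-XEN and 15.8 FPKM in wild-type XEN, a difference of 3.76 that was not called (limma adjusted p = 0.0760). Cd44 and Nrp1, receptors that can carry such chains, were lower at day 6, with 5.51 against 38.2 FPKM without dox for Cd44 and 0.844 against 10.5 FPKM for Nrp1.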

How the data were processed

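Trizol was used for the RNA and the TruSeq RNA kit for the libraries, per the labels' protocols. Build mm9, Cufflinks 2.1.2, Cuffdiff and TopHat2 2.0.11 were used, per the submitters' processing notes; use of strand is not given in the sources used here. The authors deposited FPKM per gene with interval bounds and a status, and a value with any status other than OK was taken as missing. The lower bound is 0 for 98.7% of the deposited values at 1 FPKM or more. Of the 44 genes 12 share their locus with another row. Values were used as log2(FPKM + 1), and 15082 rows with a maximum of at least 1 FPKM were kept. The 2 ESC lines differed by -0.90 to 1.01 log2 units for the middle 95% of 8031 genes at 5 FPKM or more.

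limma 3.58.1 in R 4.3.3 (empirical Bayes, mean trend, two-sided, Benjamini-Hochberg over all genes kept) compared 2 XEN lines with 2 ESC lines and fitted the slope. A trial on simulated data gave every gene the same noise, so it does not show how the p-values hold for these lines. The limma p-values measure only the spread between these lines. Other values came from Python 3.11.15, numpy 2.4.6 and pandas 2.3.3, and figures from matplotlib 3.10.9. The alternatives tried were a pseudocount of 0.1, no filter, rescaled libraries, a difference of 1 log2 unit, summed rows of a symbol, each line left out, other time axes and, chosen after seeing the data, R1 ESC as the baseline and a block of each XEN line with its ESC line. Values in every library, or their range, are given for members past 2 log2 units in a main pair and for the highest member of each role. Of the 5 other lists, up to 3 genes in each direction are named. Some single-gene results of these lists are not reported here. The genes and lists were chosen with earlier results of these data known. Promoters are from RefSeq (GRCm38.p6), the exons cut from them are from GENCODE, and gene coordinates are 1-based in mm9.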

Additional observations from a re-analysis of the deposited data

Results flagged for a closer look

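The difference between a XEN line and its ESC line went opposite ways in the 2 pairs for 4 of the genes, by at least 0.5 log2 units each way. Each value rests on single libraries and the difference between the pairs was not tested. Gpc3 differed by 2.35 between wild-type XEN and R1 ESC and by -0.81 between Sox17-XEN and Sox17-ESC without dox. Papss2 differed by 1.70 and -0.60 in the same order. Xylt1 differed by 1.36 and -0.59, with no value above 2.14 FPKM in any library. Dcn differed by -1.55 and 1.03. The fibroblast marker sum was 64.3 FPKM in wild-type XEN against 1304 FPKM in R1 ESC. It was 1041 FPKM in Sox17-XEN against 2623 FPKM without dox, so it was lower in the XEN line of both pairs.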

How the results depend on the processing

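Counts that moved by more than 1.5 times are given here, each as the number of the 44 genes called, and the cause was not tested unless the setting itself calls for fewer or more. Rescaled libraries gave 4 higher in wild-type XEN (13 as deposited), 5 higher (9) and 3 lower (0) in Sox17-XEN, and 4 in the limma test over lines (8). A pseudocount of 0.1 gave 7 lower in wild-type XEN (4), 1 lower in Sox17-XEN (0) and 14 in the test over lines. A threshold of 1 log2 unit gave 26 higher and 7 lower in wild-type XEN, 21 higher and 5 lower in Sox17-XEN, and 16 higher and 9 lower at day 6 (8 and 2). With R1 ESC as the baseline, chosen after seeing the data, Sox17-XEN had 18 higher and day 6 had 0 lower. Shares over all genes were not computed for the pseudocount of 0.1, the threshold of 1 log2 unit, the R1 ESC baseline or the rescaled test over lines. Those counts therefore cannot be set against a background. By adjusted p alone 11.6% of all genes were on the higher side and 9.89% on the lower. The adjusted p alone gave 16 in the test over lines, and leaving out 1 line gave 0 to 7, with 0 without R1 ESC and 0 without Sox17-ESC no dox. The slope passed for 21 with time in hours and for 9 with Sox17-XEN added. No value changed its sign among the called members under these settings. Of 72 single-gene values of the test over lines under alternatives, 44 kept their call and 28 lost it. Replicate numbers pair no samples, since each group has 1 library. A replicate block of each XEN line with its ESC line, chosen after seeing the data, called 8, 7 of them as before; it lost Hs3st3b1 (2.13, limma adjusted p = 0.0508), and R1 ESC and wild-type XEN share no origin that the labels name. Depth is unknown, so low values such as those of Hs3st3a1, Lum and Hpse have no counting interval.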
